A study of Rattus norvegicus with 12 samples.

Results

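The microRNAs miR-203a-3p and miR-205 were followed in rat serum small RNA libraries. These 2 mature microRNAs were taken by name from the 752 mature names of the expression table, because both are known from keratinocytes and other squamous epithelium, and both were among the 366 names that passed the filter on low values. The libraries came from 7-week-old male Sprague-Dawley (Jcl:SD) rats given a single oral dose: caffeine at 180 mg/kg (CAF), dextromethorphan hydrobromide monohydrate at 200 mg/kg (DEX), the same doses of both drugs (CAF+DEX), or the vehicle, sterile distilled water (Control). Each group had 3 libraries, while the design text gives 5 rats per group. The combined doses were given 1 h apart, caffeine first, and blood was drawn 1 h after dextromethorphan. The sources used here do not give the time from caffeine alone to blood. The comparisons ask how each drug, and the pair, changed the levels of circulating microRNAs.

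A microRNA is cut from a hairpin precursor and guides a silencing complex to transcripts that pair with its seed, bases 2 to 8 from its 5′ end. In mouse epidermis miR-203 is abundant in the layers that leave the cell cycle, where it represses the stem cell factor p63, and miR-205 is known for keeping skin progenitors proliferating. miR-205 and the miR-200 family share targets in cell lines, the transcription factors ZEB1 and ZEB2 that turn off epithelial genes. Neither microRNA is limited to skin: miR-203 is found in several epithelia, and miR-205 in the basal cells of glands. Serum carries no tissue of its own, so the source of the RNA was not measured, and the number of cells that released a microRNA and the amount released per cell cannot be told apart.

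The mature sequences from RefSeq (build GRCr8) are shown because the 2 members are often named together and yet share no seed. Capitals mark the seed, and the opposite-strand product miR-203b-3p is added because its values are given beside those of miR-203a-3p.
rno-miR-203a-3p: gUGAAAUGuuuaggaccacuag
rno-miR-205: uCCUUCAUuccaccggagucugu
rno-miR-203b-3p: uUGAACUGuuaagaaccacugg
Each of these 3 seeds occurred in 1 of the 693 mature names of the RefSeq table, so no other listed rat microRNA shares a seed with either member. The hairpins are shown with the mature strand in capitals, which lies on the 3′ arm for miR-203a-3p (bases 52 to 73) and on the 5′ arm for miR-205 (bases 33 to 55).
Mir203: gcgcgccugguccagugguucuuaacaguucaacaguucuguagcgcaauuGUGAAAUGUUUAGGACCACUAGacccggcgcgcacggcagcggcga
Mir205: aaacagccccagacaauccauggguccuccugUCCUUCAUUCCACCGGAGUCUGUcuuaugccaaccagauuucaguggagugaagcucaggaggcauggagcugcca

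In the files' coordinates (build rn6 in the submitters' processing notes) miR-203a-3p lies at chr6:136705012-136705033 on the plus strand and miR-205 at chr13:112233336-112233358 on the minus strand, each with 1 row in the table. On GRCr8 the Mir203 gene overlaps only Mir3545, the miR-203b gene on the other strand, and lies between the protein-coding genes Aspg and Kif26a. Mir205 overlaps no other listed gene, and its nearest neighbours are Camk1g and the lncRNA LOC120096361. The reverse complement of miR-203b-5p matched 20 bases of miR-203a-3p, from base 1 to base 20, so the same genomic letters carry both names. miR-203b-5p had 1 read in ctrl5 and none in the other 11 libraries, while miR-203a-3p had at least 673.67 reads in each library, so reads were assigned by strand there. The other arm, miR-203a-5p, was at 0 in all 12 libraries, and a count of 0 has an exact Poisson 95% upper limit of 3.69 reads in a library.

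Libraries held 1504963 to 1842796 assigned reads after caffeine, 403913 to 895792 after dextromethorphan, 758290 to 1160717 after both drugs and 1304868 to 2625593 in Control. The log2 ratio of miR-451-5p (a red-cell microRNA) to miR-23a-3p, a common haemolysis index, was -7.11 to -6.40 after caffeine, -6.47 to -5.13 after dextromethorphan, -6.44 to -5.67 after both and -7.83 to -7.11 in Control. DEX2 and DEX3 were the shallowest libraries and had the highest indices, -5.13 and -5.26. Values are FPKM, fragments scaled by the length of the mature microRNA and by the assigned reads of the library, so a level is relative to the other microRNAs of its library, and levels of different microRNAs are set side by side per length. Differences between sequences in ligation and amplification, which scaling does not remove, were not measured, and they bear on ranks and on the size of a ratio of microRNAs.

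miR-203a-3p was the more abundant member, with a mean of 67985 FPKM over the 12 libraries and rank 48 of 366, between miR-103-3p (73622 FPKM) and miR-28-3p (67029 FPKM). miR-205 had a mean of 6270 FPKM and rank 127, between miR-181b-5p (6629 FPKM) and miR-200b-3p (6152 FPKM). Recovered read counts ran from 673.67 to 3644.33 for miR-203a-3p and from 42 to 499.5 for miR-205, so counting error weighs more on miR-205. Its 42 reads in DEX3 have an exact Poisson 95% interval of 30.3 to 56.8 reads. Counts of miR-203a-3p were whole in 1 of 12 libraries and those of miR-205 in 11, so reads divided between several places enter the level of miR-203a-3p.

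miR-203a-3p stood at 107633, 73016 and 51511 FPKM after caffeine, at 51072, 137249 and 131310 FPKM after dextromethorphan, at 29455, 103792 and 29025 FPKM after both drugs, and at 47734, 17953 and 36071 FPKM in Control libraries ctrl1, ctrl3 and ctrl5. The highest 2 libraries were DEX2 and DEX3, and CAF3 and CAFDEX3 came next. All caffeine and all dextromethorphan libraries lay above all Control libraries, DEX1 and CAF5 by little, while after both drugs CAFDEX3 was high and the other 2 libraries lay within the Control range. Group means were 106544 ± 48131 FPKM after dextromethorphan, 77387 ± 28315 after caffeine, 54091 ± 43043 after both and 33919 ± 15007 in Control (SD, n = 3 each).

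**Figure D1:**
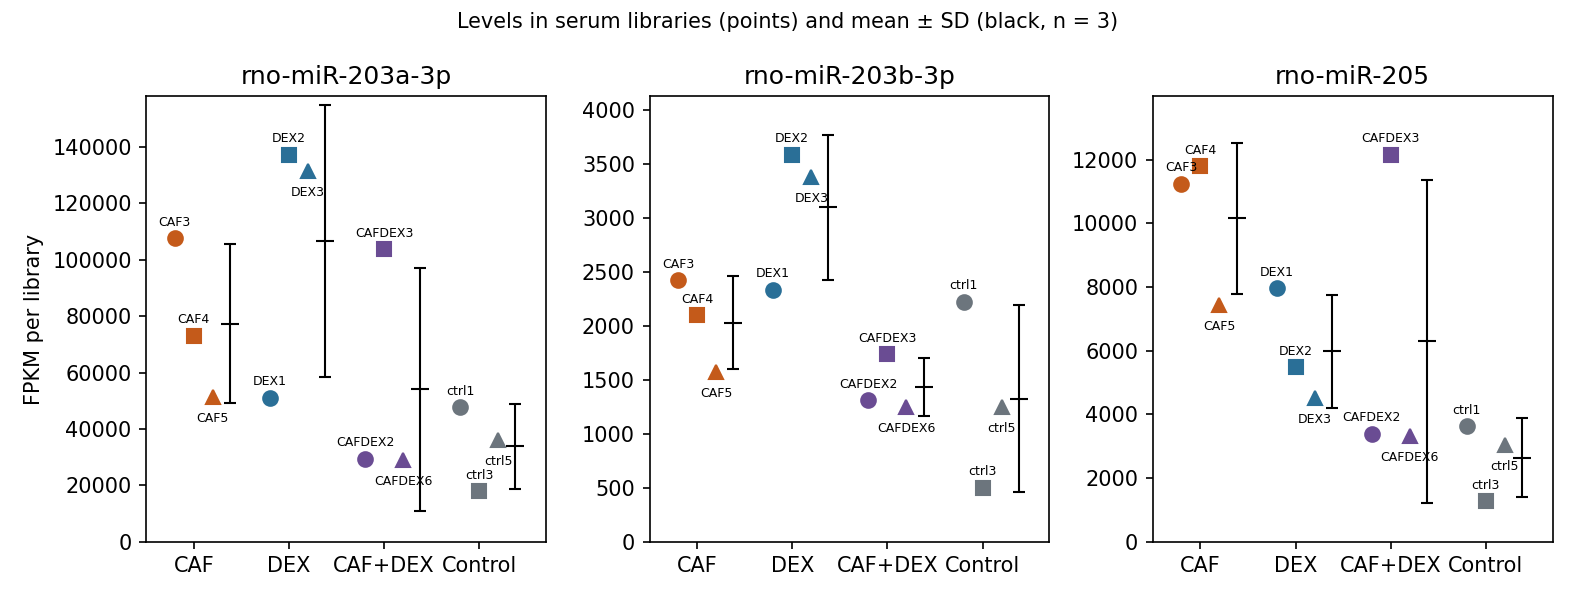
FPKM (linear axes from 0) of miR-203a-3p, its opposite-strand product miR-203b-3p and miR-205 in each library, with points by group (CAF, DEX, CAF+DEX, Control) and the mean ± SD in black (n = 3). DEX2 and DEX3 are highest for miR-203a-3p, at 137249 and 131310 FPKM, but not for miR-205, where CAFDEX3 is highest at 12156 FPKM.

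miR-205 stood at 11244, 11785 and 7425 FPKM after caffeine, at 7960, 5489 and 4521 FPKM after dextromethorphan, at 3388, 12156 and 3334 FPKM after both drugs, and at 3636, 1275 and 3032 FPKM in Control. The caffeine and the dextromethorphan libraries did not overlap with Control, whereas CAFDEX2 and CAFDEX6 lay within the Control range. CAFDEX3 was the highest library of all, as it was far above its group for miR-203a-3p. Group means were 10151 ± 2377 FPKM after caffeine, 6292 ± 5078 after both, 5990 ± 1773 after dextromethorphan and 2648 ± 1227 in Control (SD, n = 3 each).

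After caffeine miR-205 rose. Its level was 4.06-fold that of Control on the log2(FPKM + 40) scale, with a 95% interval of 1.99 to 8.28, and the log2 fold change was 2.02 ± 0.48 (SE, 3 libraries a group) with a limma adjusted p of 0.0226. Of the 366 microRNAs tested 7.92% passed in this comparison and 6.83% passed with a rise. All 3 caffeine libraries lay above all 3 Control libraries for 26.0% of them, so a lack of overlap was common. The median log2 fold change of all 366 was 0.19, and 97.5% had a lower log2 fold change than miR-205. miR-203a-3p had a log2 fold change of 1.24 ± 0.51 after caffeine and did not pass (adjusted p = 0.152, interval 1.11-fold to 4.99-fold). The rise of miR-205 did not pass without ctrl3 (log2 fold change 1.57, adjusted p = 0.152), without CAF3 (1.93, 0.0702), without CAF4 (1.90, 0.0934) or without CAF5 (2.23, 0.0525).

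After dextromethorphan miR-203a-3p rose. Its log2 fold change was 1.63 ± 0.51 (SE, 3 libraries a group), or 3.10-fold with an interval of 1.46 to 6.56. The limma adjusted p of 0.0478 was just inside the threshold of 0.05. Of the 366 tested 12.0% passed after dextromethorphan and 11.5% rose, the median log2 fold change was 0.47, and 93.4% lay below miR-203a-3p. Non-overlapping higher values were again found for 26.0%. The opposite-strand miR-203b-3p rose beside it, by 1.40 ± 0.44 log2 units (adjusted p = 0.0478), at 2334, 3587 and 3376 FPKM after dextromethorphan against 2225, 502 and 1254 FPKM in Control. The rise of miR-203b-3p passed in 2 of 10 alternative settings, both of them other pseudocounts, and in 4 of 12 fits with a single library left out. Its log2 fold change was 0.85 without ctrl3 (adjusted p = 0.207). It was 1.02 without DEX2 and DEX3, a fit that leaves DEX1 as the only dextromethorphan library. miR-205 had a log2 fold change of 1.25 ± 0.48 (interval 1.17-fold to 4.86-fold) and did not pass after adjustment (adjusted p = 0.0876). Whether the drugs differ in their effect on a member is a comparison of its own: DEX against CAF gave a log2 fold change of 0.39 ± 0.51 for miR-203a-3p (adjusted p = 0.751) and of -0.77 ± 0.48 for miR-205 (0.538). In that comparison 2.46% of microRNAs passed.

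The result for miR-203a-3p leaned on DEX2 and DEX3. Without these libraries DEX1 was the only dextromethorphan library, and the log2 fold change was 0.70. It was 1.38 without DEX2 alone (adjusted p = 0.11) and 1.41 without DEX3 alone (0.137). Leaving out ctrl3, the lowest Control library, gave 1.23 (adjusted p = 0.2). With the haemolysis index as a covariate it was 1.13 ± 1.02 (adjusted p = 0.88), against 1.63 ± 0.51 without the index. The log2 fold change of miR-205 after caffeine was 2.49 with the index (adjusted p = 0.0464). Every dextromethorphan and combination library had a higher index than every Control library. The fit with the index therefore cannot separate the index from dextromethorphan. Caffeine libraries, at -7.11 to -6.40, met the Control range of -7.83 to -7.11 only at its upper end. The fit therefore separates the index poorly from caffeine too. In the same fit miR-205 had log2 fold changes of 2.38 ± 0.92 after dextromethorphan (adjusted p = 0.631), 1.99 ± 0.79 after both drugs (0.511) and -0.11 ± 0.66 for DEX against CAF (0.978). For miR-203a-3p the last 2 of these comparisons each gave 0.10 (adjusted p = 0.98 and 0.978). Depth was also lower in the dextromethorphan libraries than in Control, and the part of depth in these values was not tested.

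After both drugs neither member passed against Control. miR-205 had a log2 fold change of 1.08 ± 0.48 (limma adjusted p = 0.154, interval 1.04-fold to 4.32-fold) and miR-203a-3p of 0.51 ± 0.51 (0.529, interval 0.671-fold to 3.01-fold), where 10.9% of the 366 passed and the median was 0.24. Without CAFDEX3 these were 0.47 for miR-205 and -0.10 for miR-203a-3p, so that 1 library set the level of the group. Against caffeine alone the combination had log2 fold changes of -0.94 ± 0.48 for miR-205 (adjusted p = 0.793) and -0.73 ± 0.51 for miR-203a-3p (0.893). No microRNA passed in that comparison with limma (0.00% of 366, 22 at an unadjusted p under 0.05) or with voom (0, and 24 unadjusted). Against dextromethorphan alone they were -0.17 ± 0.48 for miR-205 (adjusted p = 0.873) and -1.12 ± 0.51 for miR-203a-3p (0.29), with 3.55% of microRNAs passing.

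The interaction contrast asks whether the combination departs from the sum of the single-drug changes. It was -2.36 ± 0.72 log2 units for miR-203a-3p (SE, limma adjusted p = 0.0751) and -2.19 ± 0.68 for miR-205 (0.0823). Neither departure passed, 4.64% of microRNAs did, and the median over all 366 was -0.39. Without CAFDEX3 both passed, at -2.97 (adjusted p = 0.0123) for miR-203a-3p and -2.81 (0.0097) for miR-205. The contrast reuses the Control libraries and the single-drug libraries of the comparisons above.

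**Figure D2:**
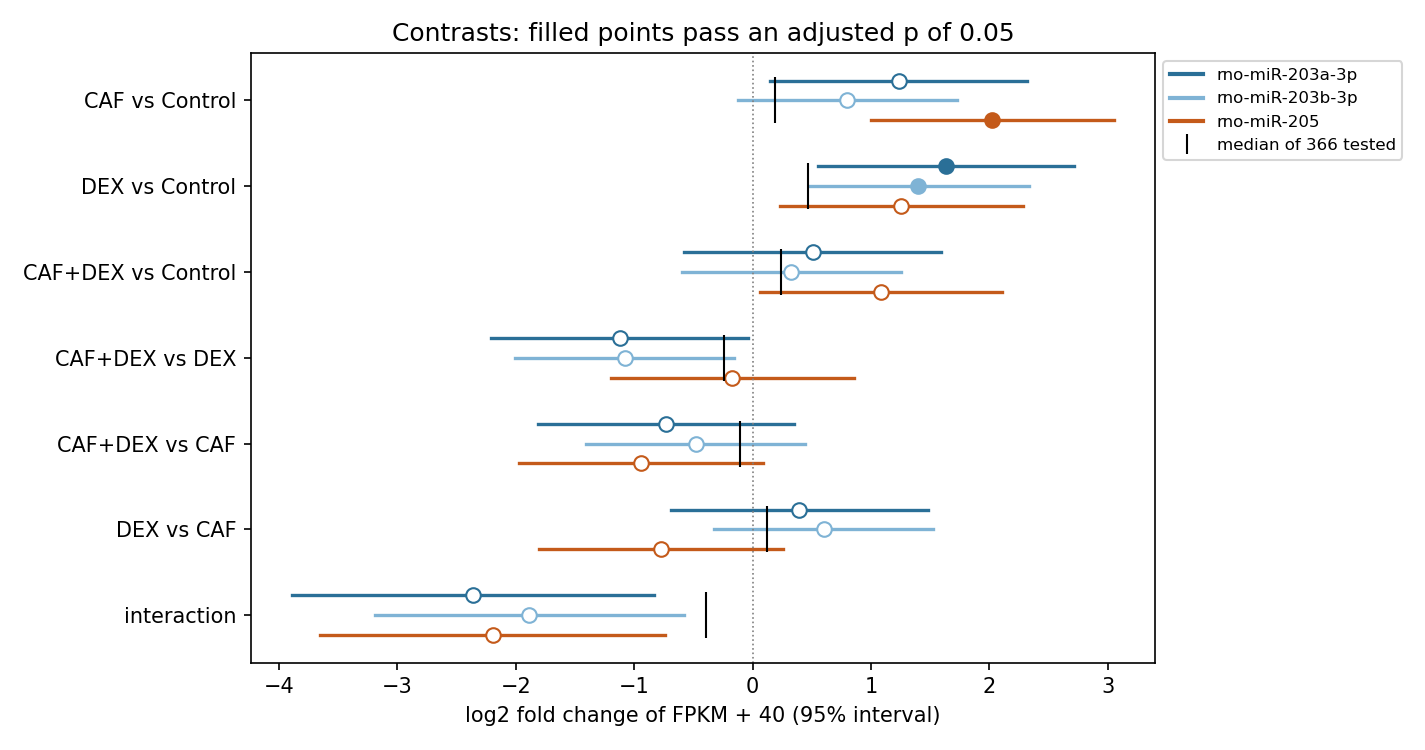
Log2 fold changes (x axis, on the log2(FPKM + 40) scale) with 95% intervals for miR-203a-3p, miR-203b-3p and miR-205 in 7 contrasts, with filled points where the adjusted p was under 0.05 and black ticks at the median of the 366 microRNAs tested. miR-205 is filled for CAF against Control (2.02) and the miR-203 products are filled for DEX against Control (1.63 and 1.40).

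On the log2 scale no step between neighbouring groups passed the adjusted threshold. For miR-203a-3p the order was DEX, CAF, CAF+DEX and Control, and the 3 steps had adjusted p-values of 0.751, 0.893 and 0.529. For miR-205 the order was CAF, DEX, CAF+DEX and Control, with 0.538, 0.873 and 0.154, whereas mean FPKM put CAF+DEX above DEX. The interval of the last miR-205 step, 1.04-fold to 4.32-fold, lay above no change although its adjusted p missed the threshold. Across the 4 groups at once, an exact permutation test over all 369600 assignments of the libraries gave p = 0.047 for miR-205 and p = 0.148 for miR-203a-3p, unadjusted for these 2 tests. A moderated F test of limma, added after the data were seen, had adjusted p-values of 0.0551 for miR-205 and 0.107 for miR-203a-3p. Both members were more variable within groups than most microRNAs: the residual SD was 0.80 log2 units for miR-203a-3p and 0.72 for miR-205, against a median of 0.52, and 70 and 93 of the 366 had a larger one.

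The ratio of the members within a library does not depend on scaling. miR-203a-3p exceeded miR-205 by 9.57-fold, 6.20-fold and 6.94-fold in CAF3, CAF4 and CAF5, by 6.42-fold, 25.0-fold and 29.0-fold in DEX1, DEX2 and DEX3, by 8.69-fold, 8.54-fold and 8.71-fold in the combination libraries, and by 13.1-fold, 14.1-fold and 11.9-fold in Control. All caffeine and combination libraries lay below all Control libraries, and the combination libraries were close to each other although CAFDEX3 had far higher levels of both members. The dextromethorphan group split, with DEX1 among the lowest ratios and DEX2 and DEX3 above every other library. Exact 95% counting intervals were 19.1 to 33.3 in DEX2, 21.4 to 40.5 in DEX3 and 5.43 to 7.61 in DEX1, so the split exceeded counting error. These intervals cover counting error only. The ratio was examined after the levels had been seen and was not tested between groups. How often other pairs of microRNAs separate from Control in this way was not counted, so the separation is not read as particular to this pair.

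**Figure D3:**
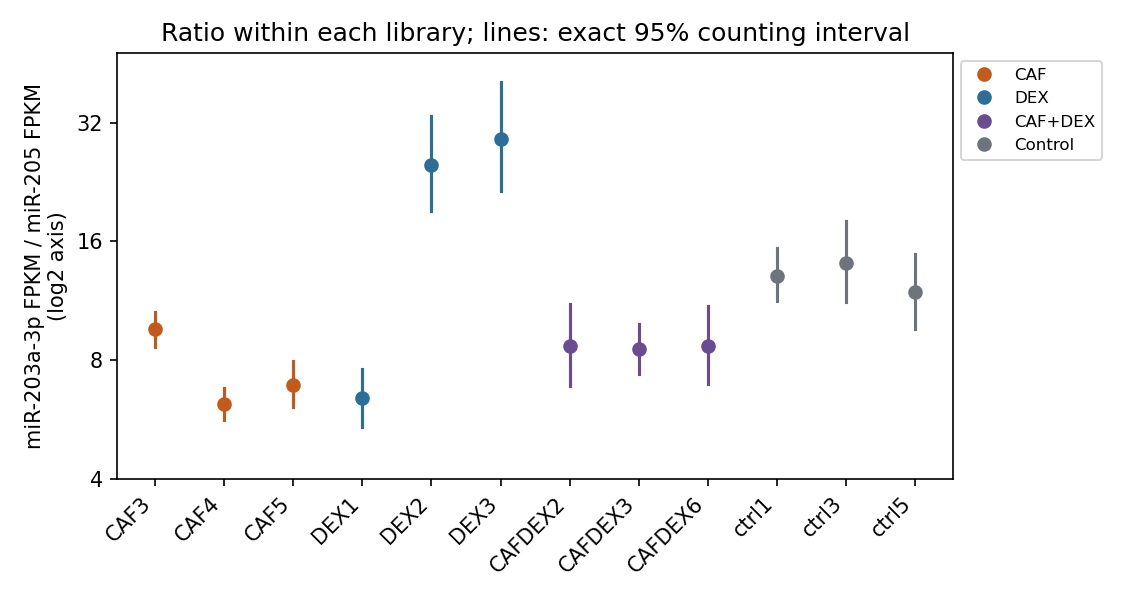
Ratio of miR-203a-3p FPKM to miR-205 FPKM in each library (log2 axis), coloured by group, with exact 95% counting intervals as lines. Combination libraries sit between 8.54 and 8.71 and Control libraries between 11.9 and 14.1, while DEX2 and DEX3 reach 25.0 and 29.0 and DEX1 is at 6.42.

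The log2 levels of the members had a Pearson r of 0.72 and a Spearman rho of 0.71 over 12 libraries, given as a description since libraries of a group share its treatment and all share a fixed total. With group means removed r was 0.67. Without DEX2 and DEX3, the libraries with the highest ratios of the members, r was 0.94 over 10 libraries, and leaving them out favours a higher r. By r over all 12 libraries the other member ranked 17 of 365 for miR-203a-3p and 28 of 365 for miR-205. The patterns most like miR-203a-3p were those of miR-203b-3p (r = 0.88), miR-541-5p (0.81), miR-224-5p (0.79), miR-222-3p (0.78) and miR-322-5p (0.77), and the least like were miR-3572 (-0.80) and miR-210-5p (-0.73). The patterns most like miR-205 were those of miR-494-3p (0.90), miR-134-5p (0.88), miR-10b-5p (0.87), miR-497-5p (0.86) and miR-379-5p (0.85), and the least like were miR-18a-3p (-0.68) and miR-421-3p (-0.65). The 5 names differ completely between the lists. With group means removed r was 0.63 to 0.80 for the 5 names most like miR-203a-3p and 0.71 to 0.85 for those most like miR-205. It was -0.79 for miR-3572, -0.50 for miR-210-5p, -0.25 for miR-18a-3p and -0.67 for miR-421-3p. With miR-200b-3p, of the epithelial miR-200 family, r was 0.73 for miR-203a-3p and 0.32 for miR-205. With group means removed these were 0.52 and -0.10.

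Other microRNAs known from keratinocytes were looked at as a list of 13, of which 8 were tested. After caffeine 1 of 8 rose, beside 6.83% of all 366, namely miR-27b-3p, by 0.99 ± 0.29 log2 units (limma adjusted p = 0.0475), with a list median of 0.72 against 0.19 over all tested. After dextromethorphan 2 of 8 rose, beside 11.5% of all, miR-203b-3p and miR-27b-3p (1.14 ± 0.29, adjusted p = 0.0247), with a median of 0.68 against 0.47, and after both drugs none did (0.34 against 0.24). miR-203b-3p comes from the miR-203a-3p locus, so its rise is the one already given above, and miR-27b-3p is also abundant in endothelium. None fell in these 3 comparisons. With median-of-ratios scaling none of the 8 passed after either drug (miR-27b-3p at 0.74 after caffeine and 0.72 after dextromethorphan). The rise of miR-27b-3p passed in 4 of 10 alternative settings after caffeine and in 5 of 10 after dextromethorphan. In fits with a single library left out it passed in 4 of 12 and 8 of 12. Over these fits 0 to 1 of the list rose after caffeine and 0 to 3 after dextromethorphan. Without DEX2 and DEX3 together DEX1 was the only dextromethorphan library, so which members of the list pass in that fit is not read. The log2 fold change of miR-27b-3p after dextromethorphan was no smaller in that fit than with DEX2 and DEX3 included. miR-31a-5p, known from wound-edge keratinocytes, had log2 fold changes of 0.24 after caffeine, 0.66 after dextromethorphan and -0.11 after both, none passing. miR-184, which in human keratinocytes opposes miR-205 on its target SHIP2, was at 679, 24296 and 544 FPKM after caffeine, 913, 410 and 9903 after dextromethorphan, 4110, 20081 and 509 after both and 432, 2874 and 697 in Control. Single libraries of every group were far above the rest, and no comparison passed (adjusted p = 0.693, 0.749 and 0.427 for the 3 treatments).

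In the miR-200 family, which maintains epithelial identity, 5 of 5 members rose after dextromethorphan, beside 11.5% of all 366, miR-429 by 3.23 ± 0.39 log2 units and miR-200c-3p by 1.95 ± 0.48 (limma adjusted p = 5.28e-05 and 0.0227), with a median of 2.77. Its summed level was 34140 to 125822 FPKM after dextromethorphan against 11580 to 16432 in Control. None of the 5 passed after dextromethorphan in the fit with the haemolysis index, which cannot separate the index from dextromethorphan. miR-200c-3p, which had the smallest rise of the 5, was at 0.11 with the index. It was at 0.36 without DEX2 and DEX3, with DEX1 as the only dextromethorphan library. The log2 fold changes of all 5 members were above 0 in both of these fits. Over single left-out libraries 4 to 5 of the 5 passed after dextromethorphan. After caffeine none of the 5 passed (median 0.95, adjusted p for miR-200b-3p = 0.101), and the sum was 16246 to 26557 FPKM. The ratio of miR-205 to miR-200b-3p was 2.52, 4.46 and 1.80 after caffeine, 1.18, 0.22 and 0.251 after dextromethorphan, 1.16, 4.33 and 1.53 after both and 2.79, 0.987 and 1.28 in Control. In DEX2 and DEX3 miR-205 thus lay below miR-200b-3p, which it exceeded or nearly matched in the other 10 libraries.

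**Figure D4:**
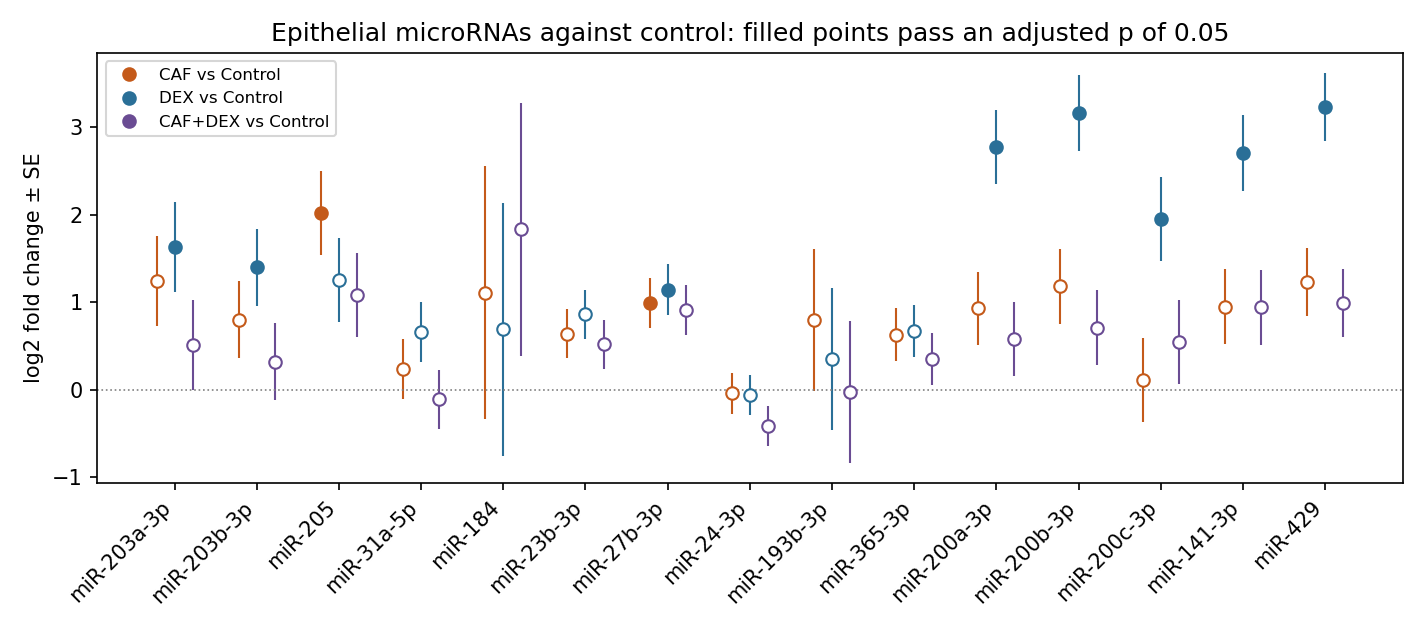
Log2 fold changes against Control (y axis, on the log2(FPKM + 40) scale) with SE for miR-203a-3p, miR-203b-3p, miR-205, tested keratinocyte microRNAs and the miR-200 family, with filled points where the adjusted p was under 0.05 and colours for the 3 treatments. Under DEX the 5 miR-200 members are filled, between 1.95 and 3.23, and miR-205 is filled under CAF, at 2.02.

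Markers of other tissues moved in the same libraries, where 6.83% of all 366 microRNAs rose after caffeine and 11.5% after dextromethorphan. Of 4 striated muscle microRNAs 3 rose after caffeine, with a summed level of 84922 to 202947 FPKM after caffeine against 8447 to 24874 in Control, and 3 did so whichever single library was left out. After dextromethorphan 1 of the 4 rose (0 to 3 over single left-out libraries). Of 4 gut, liver and kidney microRNAs tested, 3 rose after caffeine and 4 after dextromethorphan, with sums of 3154957 to 5069364 FPKM after caffeine, 3139631 to 7209549 after dextromethorphan and 856397 to 2331783 in Control. The 3 after caffeine became 0 without CAF5, without ctrl1 or without ctrl3. In the fit with the haemolysis index 1 of the 4 passed after each drug. That fit cannot separate the index from dextromethorphan and separates it poorly from caffeine. Of 3 red-cell microRNAs tested 2 rose after dextromethorphan (6349 to 13269 FPKM summed, against 2515 to 3306 in Control), 1 to 3 over single left-out libraries, and none rose after caffeine (3641 to 5554). Endocrine miR-375-3p rose after dextromethorphan, at 25117 to 53004 FPKM against 4772 to 9937 in Control. In the epithelial and sensory miR-183 cluster 2 of 2 tested members rose after dextromethorphan (19377 to 59071 FPKM summed, against 10484 to 15765 in Control), but 0 without DEX3, without ctrl1 or without ctrl3, and none rose after caffeine. Of 4 leukocyte microRNAs 1 rose after caffeine (0 without CAF5, without ctrl1 or without ctrl3) and none after dextromethorphan. In the fit with the haemolysis index, 2 of the 4 muscle microRNAs and none of the leukocyte ones passed with a rise after caffeine. After dextromethorphan none of the muscle, red-cell, endocrine or miR-183 microRNAs did in that fit. Of the pigment cell pair miR-211-5p and miR-204-5p, only miR-204-5p was tested, with log2 fold changes of 1.37 after caffeine (adjusted p = 0.236) and 1.38 after dextromethorphan (0.18). Without DEX2 and DEX3 together DEX1 was the only dextromethorphan library, so which members of these lists pass in that fit is not read. The log2 fold change of miR-204-5p after dextromethorphan was 3.22 in that fit, against 0.46 without DEX1. The part of these other tissues in the levels of miR-203a-3p and miR-205 was not tested.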

How the data were processed

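The authors' deposited table gives FPKM for each mature microRNA in 12 serum libraries. cutadapt 3.7, STAR 2.7.10a, Subread 2.0.1 with featureCounts, DESeq2 1.20.0 and the build rn6 are listed, per the submitters' processing notes, with no roles. As stated per the labels' protocols, RNA came from 200 uL of serum and the library kit adds unique molecular indices. The sources used here do not say whether duplicates were collapsed. Column names gave the group of a library, but outside DEX their numbers are not those of the titles as a set, so libraries carry their column names.

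The 836 rows were summed to 752 names. FPKM times length fitted counts in steps of 0.01 in every column, which gave the read totals (tolerance 0.001 of a step; 65.4% to 75.0% of counts were whole). limma 3.58.1 (R 4.3.3) with mean-variance trend was fitted to log2(FPKM + 40) over the 4 groups for names with a mean of 80 FPKM or more and values above 0 in 3 or more libraries, and p-values were adjusted by Benjamini-Hochberg over 366 names (8 residual and 7.58 prior degrees of freedom). This scale understates changes of low values. The 40 FPKM is the rounded 10th percentile of the non-zero values, as a median over the libraries. Tests are two-sided. A script was tested on simulated data first.

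The members, lists and alternatives were chosen with earlier results of these data known. Text names the members, other products of their loci, the 5 most and 2 least correlated microRNAs, neighbours in level, passing members of the fixed lists and the index pair; miR-31a-5p, miR-184, miR-204-5p, miR-211-5p and miR-375-3p were named after their values were seen. The labels do not say that libraries came from separate animals, and p-values reflect only the spread among the libraries at hand. Tables and figures used Python 3.11.15, numpy 2.4.6, pandas 2.3.3, scipy 1.17.1 and matplotlib 3.10.9.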

Additional observations from a re-analysis of the deposited data

How the results depend on the processing

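The rise of miR-205 after caffeine (log2 fold change 2.02) passed in 8 of 10 alternative settings, with values of 1.78 to 2.49. The highest value came with the haemolysis index, which that fit separates poorly from caffeine. The rise did not pass without the filter on low values (2.02, adjusted p = 0.0546) or without the mean-variance trend (2.02, 0.0641). Leaving out each library in turn gave 1.57 to 2.31. The rise of miR-203a-3p after dextromethorphan (1.63) passed in 1 of 10 settings, a pseudocount of 160. The others gave 1.63 with a pseudocount of 10 (adjusted p = 0.0542), 1.63 without the filter (0.0819), 1.22 with median-of-ratios scaling (0.0984), 1.36 rescaled without miR-191a-5p (0.0974), 1.62 with voom on recovered counts (0.0505), 1.63 without the trend (0.094), 1.63 in a fit with the compared groups only (0.0503), 1.13 with the haemolysis index and 0.70 without DEX2 and DEX3 together. Leaving out each library in turn gave 1.23 to 2.10 and passed in 3 of 12 cases. For miR-203a-3p after caffeine the fit with the compared groups only passed (1.24, adjusted p = 0.0461), and its DEX against CAF value reversed without DEX2 and DEX3 together (-0.53). For miR-205, CAF+DEX against DEX reversed with median-of-ratios scaling (0.07) and ran from -0.79 to 0.14 over single left-out libraries. It was 0.05 without DEX1, 0.13 without CAFDEX2 and 0.14 without CAFDEX6. The same ranges were -0.10 to 0.82 for miR-203a-3p under CAF+DEX against Control, -2.97 to -1.96 for its interaction (also past the threshold without DEX1, -2.82, adjusted p = 0.0218), 0.80 to 1.54 for miR-205 under DEX against Control (past it without CAFDEX3, adjusted p = 0.0359) and -2.81 to -1.74 for its interaction. The permutation p of miR-205 across the groups was 0.0701 with median-of-ratios scaling and 0.0525 rescaled without miR-191a-5p, against 0.047, and the added F test gave 0.0551. The cause was not tested in these cases. Median-of-ratios scaling moved the median over all microRNAs tested after dextromethorphan to 0.11, against 0.47, and after caffeine to -0.04, against 0.19.

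The number of microRNAs passing after caffeine, 29, became 11 without the filter, 19 with median-of-ratios scaling (12 higher and 7 lower, against 25 and 4), 49 with voom, 9 without the trend, 65 with the groups compared alone and 5 with the index, and 4 to 44 over single left-out libraries. After dextromethorphan 44 became 26 without the filter, 28 without miR-191a-5p (16 higher and 12 lower, against 42 and 2) and 18 without the trend. It became 25 with the groups compared alone and 1 with the index, and ran from 12 to 74 over single libraries. Median-of-ratios scaling gave 15 higher and 19 lower. Counts are left out for the fit without DEX2 and DEX3, which has DEX1 as its only dextromethorphan library. After both drugs 40 became 13 without the filter, 17 without the trend and 1 with the index, with 19 higher and 25 lower under median-of-ratios scaling and 12 higher and 27 lower without miR-191a-5p, against 24 and 16, and 3 to 56 over single libraries. For CAF+DEX against DEX, where 13 passed, median-of-ratios scaling gave 6 higher and 11 lower against 1 and 12, and single left-out libraries gave 9 to 24. For DEX against CAF 9 became 3 with the groups compared alone and 0 by limma with the index, and 3 to 27 over single libraries. For the interaction 17 became 9 without the filter, 8 with median-of-ratios scaling, 11 without miR-191a-5p and 7 with the index, and 8 to 38 over single libraries. CAF+DEX against CAF stayed at 0 by limma in all settings run.

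No paired analysis was possible because outside DEX the columns' numbers are not the title numbers as a set, so columns were matched to groups only. Depth limits values after dextromethorphan, with 42 reads of miR-205 and 30 of miR-203b-3p in DEX3.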
